A study of Homo sapiens with 9 samples.

Results

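The calponins (CNN1, CNN2 and CNN3), the transgelins TAGLN and TAGLN2, the tropomyosins (TPM1, TPM2, TPM3 and TPM4) and caldesmon (CALD1) encode actin-binding proteins of the contractile programme. They were chosen by gene symbol, and all 10 genes were found among the 58174 genes of the tables. Their mRNA abundance was monitored by total RNA-seq in the ovarian carcinoma-derived, established cell line ES-2, 72 h after transfection. The 3 groups, of 3 libraries each, were cells that received a control siRNA (siC), an siRNA pool directed against IGF2BP1 (siIGF2BP1) or an siRNA pool directed against SRF (siSRF). All cells were grown in the same serum-containing medium and carried no other modification that the labels name. The knockdowns are transient, and the labels do not say whether the libraries of a group came from separate cultures, so that p-values measure the spread between these libraries only.

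Tropomyosins are coiled-coil dimers that polymerise end to end along actin filaments and determine which myosins and other proteins gain access to them. Calponins, transgelins and caldesmon bind along the same filaments. Calponins and caldesmon restrain the ATPase of actomyosin, and transgelins cross-link filaments. CNN1, TAGLN, TPM1, TPM2 and CALD1 are best known from smooth muscle, where many of these genes are activated by SRF through the CArG box, the DNA element that SRF binds, while CNN2, CNN3, TAGLN2, TPM3 and TPM4 are also expressed in non-muscle cells.

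With reads recovered from the FPKM values, between 6421764 and 9416175 reads per library, with a median of 7377934, were counted on genes. The knockdowns were seen in the targeted mRNAs. IGF2BP1 was at 32.1% of siC upon its own depletion, and SRF was at 10.1% of siC upon SRF depletion. SRF was also at 41.3% of siC upon IGF2BP1 depletion, so that siIGF2BP1 libraries held less SRF mRNA than siC libraries, but more than siSRF libraries. Of 9 epithelial and ovarian carcinoma markers, KRT7, KRT8 and KRT18 were at 1 FPKM or more in every group, MUC16 was at 0 in all libraries, and EPCAM, CDH1, KRT19, PAX8 and WT1 did not exceed 0.262 FPKM in any library. Their summed level was between 149 and 161 FPKM in the siC, 192 and 220 FPKM in the siIGF2BP1 and 217 and 222 FPKM in the siSRF libraries. The sum of 4 mesenchymal markers, most of it VIM, was between 1092 and 1110 FPKM in siC, 894.5 and 974.5 FPKM in siIGF2BP1 and 881 and 931 FPKM in siSRF. Both sums thus differed between siC and the knockdowns without overlap, but not all of their markers moved with them. KRT7 and KRT8 were above siC in both knockdowns. KRT18 was higher in siSRF only, and its siIGF2BP1 mean of 41.8 FPKM was close to 43.4 FPKM in siC. VIM and FN1 were below siC in both knockdowns. CDH2 rose from 25.4 FPKM in siC to 40.1 FPKM after IGF2BP1 depletion and 29.8 FPKM after SRF depletion. ZEB1 overlapped siC in siIGF2BP1 and was above it in siSRF. The part of these markers in the results of the members was not tested. The summed level of the markers of differentiated smooth muscle MYH11, DES and MYOCD did not exceed 0.0635 FPKM in any library, that of 4 striated muscle markers did not exceed 0.132 FPKM, and that of 4 blood markers did not exceed 0.1 FPKM. Of the endothelial markers, PECAM1 and VWF were below 1 FPKM in every group, while CDH5 averaged 9.38 FPKM in siC cells, 15.2 FPKM after IGF2BP1 depletion and 7.93 FPKM after SRF depletion.

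In siC cells the non-muscle members dominated. FPKM values, which scale fragments to gene length and to an effective library size, were compared between genes. This size was 0.967 to 1.04 times the number of counted reads. CNN3 was the most abundant at 117 FPKM ± 1.70 (SD, n = 3), above 98.6% of the protein-coding genes, followed by TAGLN2 at 89.3 FPKM ± 3.89. TPM4 (59.3 FPKM ± 2.05) and TPM3 (58.1 FPKM ± 3.08) came next, and their libraries overlapped. CNN2 (34.9 FPKM ± 1.20), TPM1 (20.5 FPKM ± 1.21) and CALD1 (12.5 FPKM ± 0.692) followed, each with all libraries below those of the gene before. TPM2 was at 1.22 FPKM ± 0.467, above 49.2% of the protein-coding genes. The smooth muscle members TAGLN (0.150 FPKM ± 0.0775) and CNN1 (0.0839 FPKM ± 0.0289) were close to the limit of the measurement, with overlapping libraries. They rested on 12 and 5 reads over the 3 siC libraries, respectively.

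**Figure D1:**
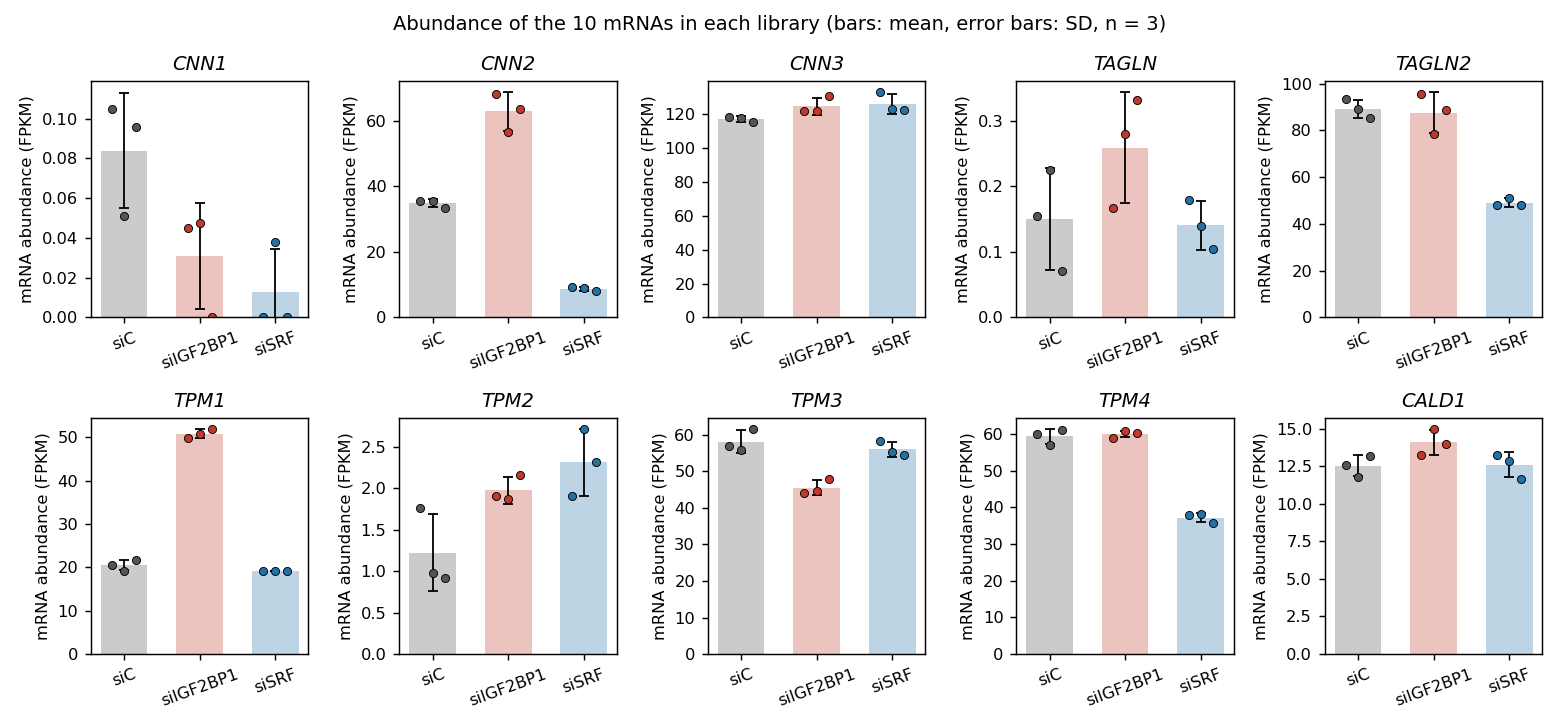
mRNA abundance (FPKM, linear axes from 0) of the 10 genes in siC, siIGF2BP1 and siSRF cells, with 1 point per library, bars for the mean and error bars for the SD (n = 3, not drawn below 0). CNN2 and TPM1 stood above siC in all siIGF2BP1 libraries, CNN2, TAGLN2 and TPM4 stood below siC in all siSRF libraries, and no library exceeded 0.105 FPKM for CNN1 or 0.332 FPKM for TAGLN.

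Promoter sequences were inspected for a CArG box, since SRF depletion was one of the perturbations. RefSeq windows (GRCh38.p14) of 300 bases, from 250 bases before to 50 bases after a transcription start, were searched for exact matches, and as the element is its own reverse complement a match counts for both strands. Windows were found for 9 of the 10 genes, all but TAGLN. A match was present in 2 of their 19 windows, 1 of CNN2 and 1 of the 3 of TPM4, compared with 454 of all 35116 windows (1.29%). The windows of CNN1, CNN3, TAGLN2, TPM1, TPM2, TPM3 and CALD1 held none, which says only that these letters are not in these windows. Both matches are shown with 40 bases on either side, and capitals mark the CArG box. CNN2 and TPM4 were among the 3 members that fell upon SRF depletion. The other, TAGLN2, had no match in its 3 windows. Whether these boxes have a part in the response to SRF depletion was not tested. The CNN2 stretch lies at chr19:1026479-1026568 on the plus strand, with the box 89 to 80 bases before the start. The TPM4 stretch lies at chr19:16067325-16067414 on the plus strand, with the box 173 to 164 bases before a start inside the annotated gene.
CNN2: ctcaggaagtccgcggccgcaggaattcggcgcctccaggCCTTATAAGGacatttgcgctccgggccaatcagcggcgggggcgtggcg
TPM4: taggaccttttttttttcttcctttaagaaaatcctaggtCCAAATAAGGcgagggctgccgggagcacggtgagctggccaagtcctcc

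To analyze how the members responded to IGF2BP1, siIGF2BP1 libraries were compared with siC libraries by limma-trend on log2(FPKM + 0.1), with p-values adjusted over all genes tested. This scale understates the change of low genes. Of the 9 members tested, 2 rose, TPM1 and CNN2, and 1 fell, TPM3. Among all 22292 genes tested, 3.55% were called higher and 3.57% lower at the same adjusted p of at most 0.01. CNN1 was too low to be tested. The median log2 fold change was 0.17 over the 9 members and 0.02 over all genes tested. As the libraries hold RNA of whole cell populations, a lower share of expressing cells and a lower amount of mRNA per cell cannot be told apart here or in what follows.

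TPM1 showed the largest change of the members tested upon IGF2BP1 depletion. This gene (ENSG00000140416, plus strand, chr15:63042620-63071915, GRCh38) encodes tropomyosins of muscle and of non-muscle stress fibres. The siC libraries were at 20.5, 19.3 and 21.7 FPKM, and the siIGF2BP1 libraries at 49.9, 50.7 and 51.9 FPKM. All siIGF2BP1 libraries lay far above all siC libraries, and the spread within each group was small. The mean rose 2.48-fold, from 20.5 FPKM ± 1.21 to 50.8 FPKM ± 1.01 (SD, n = 3 each), with a log2 fold change of 1.31 (standard error, SE, 0.0543, limma adjusted p = 0.000141). In siSRF cells TPM1 was at 19.2, 19.1 and 19.2 FPKM, slightly below siC, with a log2 fold change of -0.09 (95% interval -0.22 to 0.04, limma adjusted p = 0.296). The direct comparison of the knockdowns, which does not use the siC libraries, gave a log2 fold change of 1.40 between siIGF2BP1 and siSRF (SE 0.0328, limma adjusted p = 8.4e-06). The antisense gene TPM1-AS, which overlaps TPM1, averaged 0.0137 FPKM in control cells. Its mean was 0.0753 FPKM after IGF2BP1 depletion and 0.0571 FPKM after SRF depletion. These means were below the 0.1 FPKM needed for testing, so that a change of TPM1-AS was not tested.

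CNN2 was the one member called against siC in both knockdowns, in opposite directions. Calponin 2 is the calponin of non-muscle and epithelial cells and stabilises actin filaments. Its gene (ENSG00000064666) lies on the plus strand at chr19:1026586-1039068. The siC libraries were at 35.5, 35.6 and 33.5 FPKM, the siIGF2BP1 libraries at 68.3, 56.6 and 63.6 FPKM, and the siSRF libraries at 9.27, 8.88 and 8.07 FPKM. The 3 groups did not overlap, with siIGF2BP1 on top and siSRF at the bottom. Upon IGF2BP1 depletion the CNN2 mRNA rose 1.80-fold (log2 fold change 0.84, SE 0.0746, limma adjusted p = 0.00127). Without the siIGF2BP1 library 3 the log2 fold change was 0.83 and the limma adjusted p 0.0108, just above the threshold. Upon SRF depletion CNN2 fell to 25.1% of siC (log2 fold change -1.99, SE 0.0643, limma adjusted p = 6.1e-05). In siIGF2BP1 cells CNN2 was at 7.19 times the siSRF level (log2 fold change between the knockdowns 2.83, SE 0.0844, limma adjusted p = 1.3e-05). SRF mRNA was below siC in both groups, and in siIGF2BP1 cells it was at 4.08 times the siSRF level (log2 fold change 1.96, limma adjusted p = 0.000132). The part of SRF in the CNN2 difference was not tested. The CArG box of the CNN2 promoter was printed above; SRF binding was not measured in these data.

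TPM3 was moderately decreased by IGF2BP1 depletion. The TPM3 gene (ENSG00000143549, minus strand, chr1:154155308-154194648) encodes tropomyosins of the cytoskeleton and of slow muscle. It was at 57.1, 55.7 and 61.6 FPKM in siC and at 44.0, 44.7 and 47.8 FPKM in siIGF2BP1. The groups did not overlap, and the mean fell to 78.3% of siC. This corresponds to a log2 fold change of -0.35 (SE 0.0564, limma adjusted p = 0.00946). This call was close to the threshold, and leaving out any single library, of siC or of siIGF2BP1, raised the limma adjusted p to between 0.0218 and 0.0395, with log2 fold changes between -0.39 and -0.31. Upon SRF depletion TPM3 was at 58.4, 55.4 and 54.5 FPKM, overlapping siC (log2 fold change -0.05, 95% interval -0.18 to 0.08, limma adjusted p = 0.550). Between the knockdowns TPM3 was lower in siIGF2BP1, by a log2 fold change of -0.30 (SE 0.0473, limma adjusted p = 0.00398). There too the call was lost without siIGF2BP1 library 1 or 2, or without any siSRF library, with limma adjusted p between 0.0107 and 0.0176. The pseudogene RN7SL431P, which lies within TPM3 on the same strand, averaged 3.88 FPKM in siC cells, 2.11 FPKM after IGF2BP1 depletion and 1.35 FPKM after SRF depletion.

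In SRF-depleted cells, 3 of the 9 members tested fell, CNN2, TAGLN2 and TPM4, and 0 rose. Of all 21857 genes tested against siC, 5.34% were called lower and 6.85% higher. The median log2 fold change was -0.05 over the members and 0.01 over all genes tested. For the increase, limma-voom on reads recovered from the FPKM values called 1 member higher (TPM2, described below). At an unadjusted p of at most 0.05 by limma-trend, 1 member was higher, TPM2, beside 18.7% of all genes tested. The siC libraries are shared by the comparisons of both knockdowns, so their values are given side by side.

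TAGLN2 encodes transgelin 2, the transgelin of non-muscle cells. Its gene (ENSG00000158710) is on the minus strand at chr1:159918107-159925507. The siC libraries were at 93.2, 89.1 and 85.5 FPKM, and the siSRF libraries at 48.0, 51.2 and 48.0 FPKM. All siSRF libraries were well below siC. The level fell to 55.0% of siC (log2 fold change -0.86, SE 0.0492, limma adjusted p = 0.000329). The siIGF2BP1 libraries, at 95.5, 78.3 and 88.8 FPKM, spanned the range of siC. Here the log2 fold change amounted to -0.03 (95% interval -0.23 to 0.16, limma adjusted p = 0.840). Between siIGF2BP1 and siSRF the log2 fold change of TAGLN2 was 0.83 (SE 0.0769, limma adjusted p = 0.000474).

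TPM4, which encodes a tropomyosin of the non-muscle cytoskeleton, was likewise lowest in siSRF. The gene (ENSG00000167460, plus strand, chr19:16067021-16103002) was at 59.9, 57.1 and 61.0 FPKM in siC and at 37.8, 38.1 and 35.8 FPKM in siSRF. The siSRF libraries lay below all others. TPM4 fell to 62.8% of siC upon SRF depletion (log2 fold change -0.67, SE 0.0453, limma adjusted p = 0.000469). The siIGF2BP1 libraries were at 59.0, 60.8 and 60.2 FPKM, within the range of siC (log2 fold change 0.02, 95% interval -0.08 to 0.12, limma adjusted p = 0.836). The knockdowns differed from each other by a log2 fold change of 0.69 (SE 0.0378, limma adjusted p = 7.4e-05).

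The direct comparison of siIGF2BP1 with siSRF called 4 members higher in siIGF2BP1 (CNN2, TPM1, TAGLN2 and TPM4) and 1 lower (TPM3), of 9 tested. Of all 22311 genes tested there, 8.82% were called higher and 11.2% lower. The median log2 fold change was 0.56 over the members and 0.02 over all genes tested. The median member was TAGLN, which was not called and rests on few reads, and with a pseudocount of 1 the median over the members was 0.15.

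**Figure D2:**
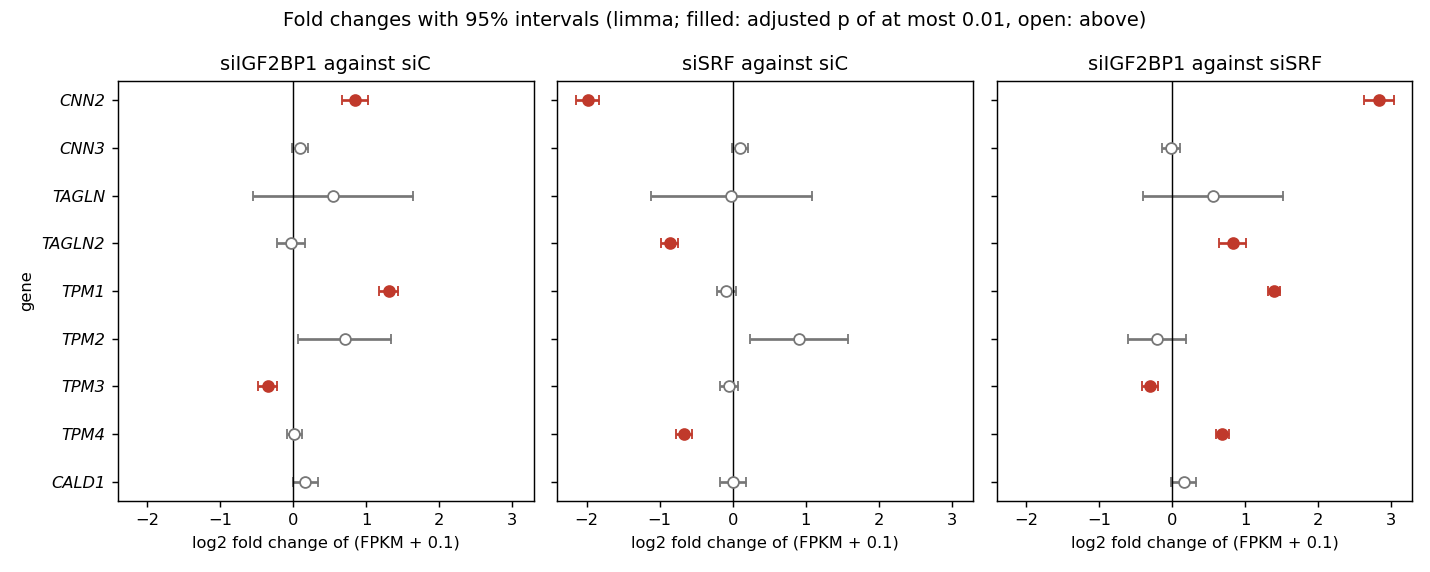
Log2 fold changes of (FPKM + 0.1) with 95% intervals of the 9 members tested, in the 3 comparisons of 3 libraries with 3 (limma; filled points had an adjusted p of at most 0.01). CNN2 lay at 0.84 in siIGF2BP1 and at -1.99 in siSRF, TPM1 was called against siC in siIGF2BP1 alone among these comparisons, and the intervals of TAGLN and TPM2 were the widest.

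The most abundant member, CNN3, passed the test in none of the 3 comparisons. CNN3 (ENSG00000117519, minus strand, chr1:94896949-94927223) encodes the acidic calponin, which is expressed in many non-muscle cells. It was at 119, 118 and 115 FPKM in siC, at 122, 122 and 131 FPKM in siIGF2BP1 and at 133, 123 and 122 FPKM in siSRF. All knockdown libraries lay slightly above the siC libraries. The log2 fold changes against siC were 0.09 (95% interval -0.02 to 0.20, limma adjusted p = 0.241) and 0.10 (95% interval -0.01 to 0.21, limma adjusted p = 0.161). CALD1 (ENSG00000122786, plus strand, chr7:134744252-134970729) encodes caldesmon, which links actin to myosin and is regulated by calmodulin. It was at 12.6, 11.8 and 13.2 FPKM in siC, 13.3, 15.0 and 14.0 FPKM in siIGF2BP1 and 13.3, 12.8 and 11.7 FPKM in siSRF. The siIGF2BP1 libraries were all above siC by a narrow margin (log2 fold change 0.17, 95% interval -0.0024 to 0.33, limma adjusted p = 0.176), and the siSRF libraries overlapped siC (log2 fold change 0.01, 95% interval -0.17 to 0.18, limma adjusted p = 0.969).

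TPM2 (ENSG00000198467, minus strand, chr9:35681992-35690056), a tropomyosin of smooth and skeletal muscle, was low and variable in siC. It was at 1.76, 0.982 and 0.922 FPKM in siC, 1.90, 1.86 and 2.16 FPKM in siIGF2BP1 and 1.90, 2.71 and 2.31 FPKM in siSRF. Library 1 of siC stood apart from the other siC libraries and close to the knockdown libraries. Relative to siC, TPM2 had a log2 fold change of 0.70 in siIGF2BP1 (95% interval 0.07 to 1.34, limma adjusted p = 0.136) and 0.91 in siSRF (95% interval 0.24 to 1.58, limma adjusted p = 0.0624), neither of which passed the threshold. Without siC library 1 these values were 0.98 (limma adjusted p = 0.0296) and 1.18 (limma adjusted p = 0.0189). Between 27 and 100 reads stood behind each TPM2 value. Limma-voom on the recovered reads, which weights values by read number, called the difference between siSRF and siC (log2 fold change 0.99, limma adjusted p = 0.000749). For siIGF2BP1 against siC the same fit gave a log2 fold change of 0.76 and a limma adjusted p of 0.0105, just above the threshold.

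TAGLN and CNN1, both markers of differentiated smooth muscle, were near 0 in all groups. TAGLN (ENSG00000149591, plus strand, chr11:117199370-117207464) was at 0.155, 0.225 and 0.0706 FPKM in siC, 0.166, 0.280 and 0.332 FPKM in siIGF2BP1 and 0.179, 0.140 and 0.104 FPKM in siSRF. The groups overlapped, and between 2 and 11 reads were counted per library. Over the 3 libraries, 24 TAGLN reads in siIGF2BP1 stood against 12 in siC, a ratio of 1.76 after scaling to library size (exact 95% interval 0.847 to 3.86, for counting error only). For siSRF, with 13 reads, the ratio was 0.946 (exact 95% interval 0.398 to 2.27). PCSK7, which overlaps TAGLN on the opposite strand, was at 2.31 FPKM in siC. The library kit keeps strand, but whether reads were counted by strand is not given in the sources used here. CNN1 (ENSG00000130176, plus strand, chr19:11538767-11550323) had 2, 1 and 2 reads in the siC libraries, 1, 1 and 0 in siIGF2BP1 and 0, 1 and 0 in siSRF. The ratio to siC was 0.352 (exact 95% interval 0.0335 to 2.15) for siIGF2BP1 and 0.175 (exact 95% interval 0.00369 to 1.56) for siSRF, so that a difference was not detectable at this depth.

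The makeup of the tropomyosin mRNA was then compared, as the share of each gene in the summed FPKM of TPM1 to TPM4. In siC, TPM4 made up 42.6% ± 0.544 and TPM3 41.8% ± 0.725 of the sum, TPM1 14.7% ± 0.226 and TPM2 0.879% ± 0.337 (SD in percentage points, n = 3). Upon IGF2BP1 depletion the TPM1 share was 32.1% ± 0.105, and TPM3 was at 28.7% ± 0.668 and TPM4 at 37.9% ± 0.675. The share of TPM1 was thus 2.18 times that of siC and exceeded that of TPM3. Upon SRF depletion TPM3 was the leading tropomyosin gene with 48.8% ± 0.883, while TPM4 was at 32.4% ± 0.547, TPM1 at 16.7% ± 0.427 and TPM2 at 2.01% ± 0.366. In siC the shares of TPM4 and TPM3 overlapped. There TPM3 came before TPM4 when shares were counted as reads or with pseudogenes added (see the last section). For each of TPM1, TPM3 and TPM4, the shares did not overlap between the 3 groups. In each of these comparisons the two-sided exact permutation test gave p = 0.1, which is the lowest value possible with 3 libraries per group. For TPM2 the shares of siC and siIGF2BP1 overlapped (exact permutation p = 0.3). Since the shares of a library sum to a constant, they are not independent of each other.

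The summed tropomyosin level averaged 139 FPKM ± 6.10 (SD, n = 3 per group) in control cells, 158 FPKM ± 3.67 in IGF2BP1-depleted and 115 FPKM ± 2.81 in SRF-depleted cells, and the groups did not overlap (two-sided exact permutation test, p = 0.1 for each pair, the smallest possible). In siIGF2BP1 the mean of TPM1 was 30.3 FPKM above siC, while TPM3 was 12.6 FPKM below it. In siSRF the sum was lower by 24.3 FPKM, and TPM4 alone was lower by 22.1 FPKM. The table gives 1 value per gene, so that the muscle and non-muscle isoforms made from each tropomyosin gene by alternative promoters and splicing were not told apart.

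**Figure D3:**
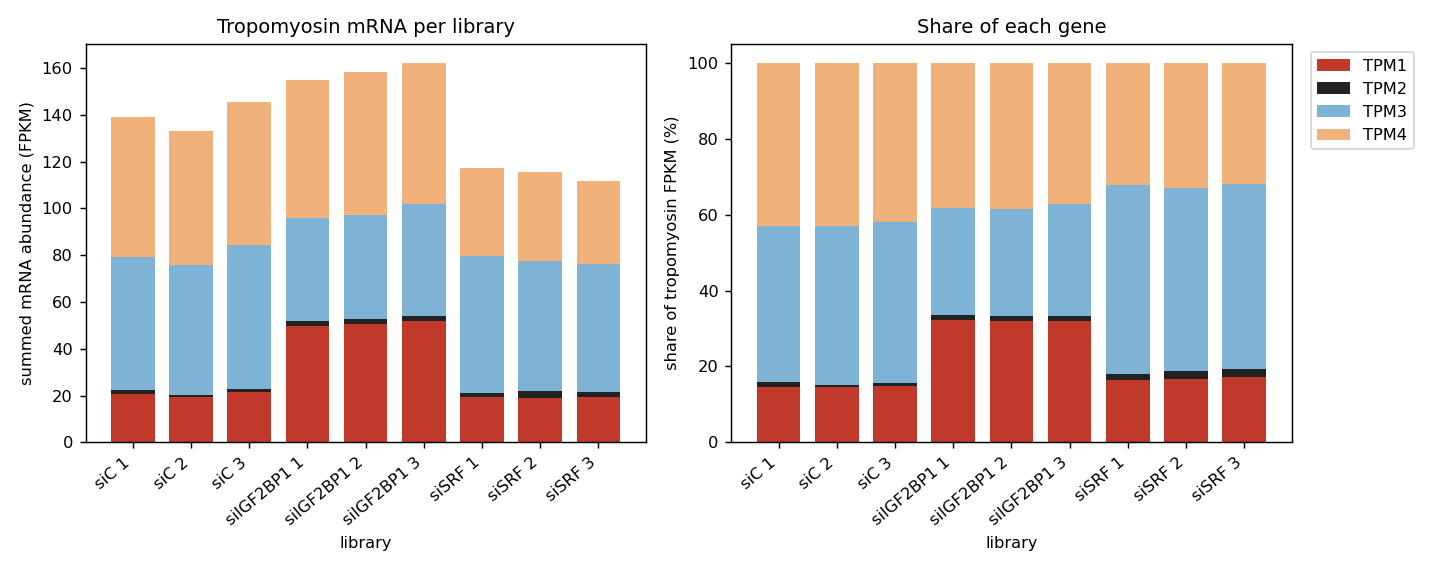
Summed FPKM of TPM1, TPM2, TPM3 and TPM4 in each library (left) and the share of each gene in that sum (right, in percent). The TPM1 share was between 32.0% and 32.2% in the siIGF2BP1 libraries and between 14.5% and 17.2% in all others, and the sum was lowest in the siSRF libraries.

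The calponin and transgelin sums were each carried by 1 or 2 genes. CNN3 made up 77.0% ± 0.367 and CNN2 22.9% ± 0.379 of the calponin FPKM in siC. In siIGF2BP1 the CNN2 share was 33.5% ± 2.19, and in siSRF it was 6.48% ± 0.274 (SD in percentage points, n = 3). The groups did not overlap (two-sided exact permutation test, p = 0.1 for each pair, the smallest possible). The calponin sum was 152 FPKM in control cells, 188 FPKM in IGF2BP1-depleted cells and 135 FPKM in SRF-depleted cells. TAGLN2 made up at least 99.6% of the transgelin FPKM in every library, and their sum was 89.4 FPKM in control, 87.8 FPKM in IGF2BP1-depleted and 49.2 FPKM in SRF-depleted cells.

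Pseudogenes share sequence with their parents and could take up or supply reads. The tables list 22 pseudogenes named after the members, 11 of them for CNN2 and 8 for TPM3, and 14 of the 22 were at 0 in all libraries. TAGLN2P1 had the highest level, with 3.95 FPKM in control, 5.83 FPKM in IGF2BP1-depleted and 4.14 FPKM in SRF-depleted cells, followed by TPM3P9 with 2.76, 2.66 and 2.06 FPKM in the same order. The CNN2 pseudogenes reached at most 0.452 FPKM, with CNN2P9. These levels were low beside those of TAGLN2, TPM3 and CNN2. How reads that fit a gene and its pseudogene equally well were counted is not given in the sources used here.

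Other actin-binding genes were then inspected. In a list of 17 tropomodulins, leiomodins, troponins and nebulins, which cap thin filaments or bind tropomyosin on them, 5 were tested against siC in each knockdown. By limma, 0 passed the adjusted threshold in either, and the count at an unadjusted p of at most 0.05 was 2 in siIGF2BP1, both higher, and 0 in siSRF. Of all genes tested, 14.7% were higher and 14.5% lower at that unadjusted threshold in siIGF2BP1, and 18.7% were higher and 16.0% lower in siSRF. Most of the list are genes of striated muscle with little or no signal here. TMOD3, the widely expressed tropomodulin that caps the pointed ends of tropomyosin-coated filaments, averaged 12.4 FPKM ± 0.690 (SD, n = 3 per group) in control, 15.0 FPKM ± 0.578 in IGF2BP1-depleted and 12.1 FPKM ± 0.398 in SRF-depleted cells. It was the 1 of 6 tested genes called between the knockdowns (log2 fold change 0.30, SE 0.0505, limma adjusted p = 0.00509). Of all genes tested there, 8.82% were called higher and 11.2% lower in siIGF2BP1.

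A list of 16 further actin binders, nearly all with the calponin homology domain found in calponins and transgelins, was examined next. Of 14 tested, 3 rose and 3 fell upon IGF2BP1 depletion, beside 3.55% and 3.57% of all genes tested, with a median log2 fold change of -0.05 beside 0.02 over all genes. PARVA, which links integrins to actin, rose from 7.28 to 12.6 FPKM (log2 fold change 0.78, limma adjusted p = 0.000704). LIMA1, an actin cross-linker with a LIM domain in place of the calponin homology domain, and the scaffold IQGAP1 rose as well, with log2 fold changes of 0.73 and 0.41. The actin cross-linkers ACTN1 and ACTN4 fell, with log2 fold changes of -0.46 (limma adjusted p = 0.00203) and -0.58 (limma adjusted p = 0.000967). The third to fall was TAGLN3, the neuronal transgelin, from 2.83 FPKM ± 0.640 to 0.681 FPKM ± 0.203 (SD, n = 3; log2 fold change -1.92, limma adjusted p = 0.00684). In siSRF cells TAGLN3 averaged 5.66 FPKM ± 1.20, above siC but not called (log2 fold change 0.98, limma adjusted p = 0.0231). It was called lower in siIGF2BP1 than in siSRF (log2 fold change -2.90, limma adjusted p = 0.000412). Its close relative TAGLN2 was at 87.5 FPKM in siIGF2BP1 cells and at 49.1 FPKM in siSRF cells, where it fell, as described above.

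Upon SRF depletion, 3 genes of this list fell and 2 rose, beside 5.34% and 6.85% of all genes tested, with a median log2 fold change of 0.08 beside 0.01 over all genes. FLNA, a filamin that cross-links actin, fell from 128 to 75.2 FPKM (log2 fold change -0.76, limma adjusted p = 0.000747), the parvin PARVB from 7.22 to 3.25 FPKM (-1.13, limma adjusted p = 0.000399) and the spectrin SPTBN1 from 15.9 to 10.2 FPKM (-0.63, limma adjusted p = 0.00141). The filamin FLNC and the actin-bundling plastin PLS3 rose, with log2 fold changes of 0.73 and 0.72 (limma adjusted p = 0.000760 and 0.000922). FLNA and FLNC thus moved in opposite directions in the same cells. Between the knockdowns 6 genes of the list were higher and 7 were lower in siIGF2BP1, beside 8.82% and 11.2% of all genes tested. The 7 lower genes included PLS1 (log2 fold change -0.65) and MICAL1 (-0.72), which were called between the knockdowns alone.

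**Figure D4:**
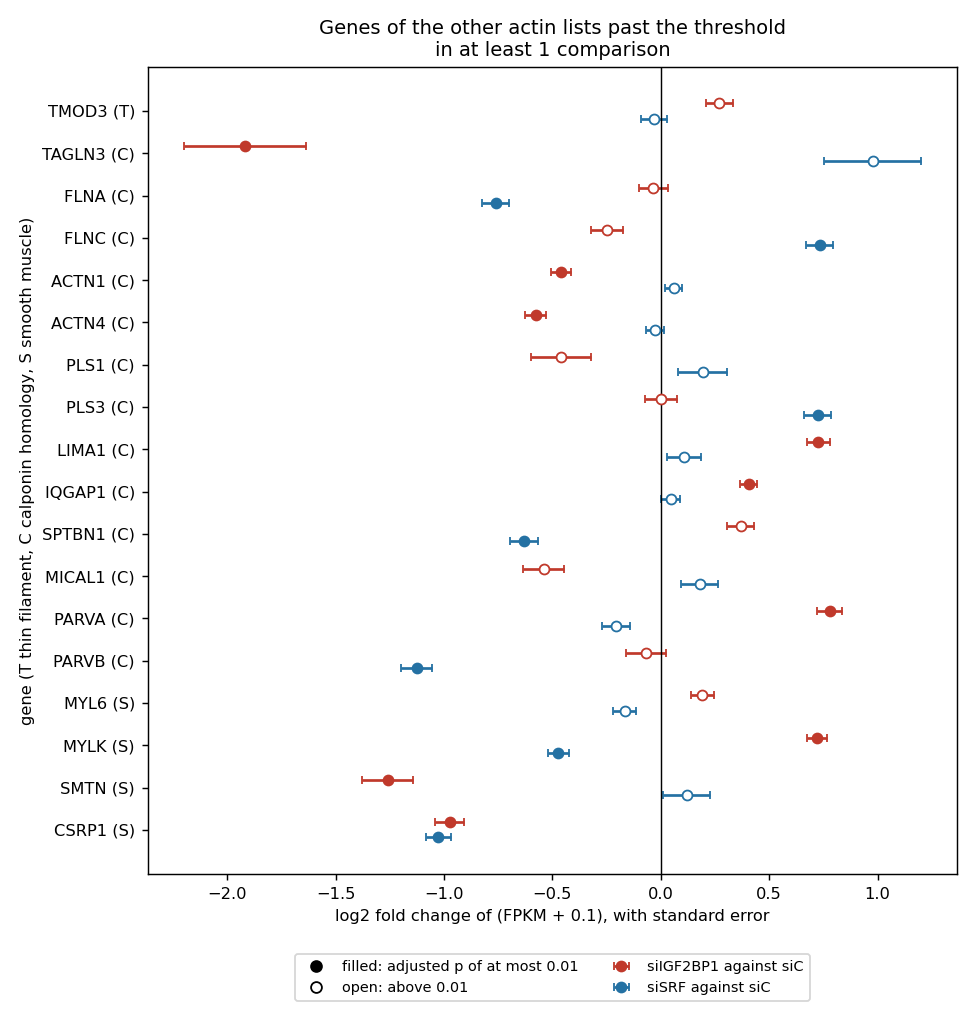
Log2 fold changes of (FPKM + 0.1) with standard errors against siC (n = 3 libraries per group, limma) of the genes of the lists of thin filament partners (T), calponin homology actin binders (C) and smooth muscle contractile markers (S) that were called in at least 1 of the 3 comparisons. Filled points had an adjusted p of at most 0.01, and CSRP1 had filled points below 0 in both knockdowns, while those of MYLK lay on opposite sides of 0.

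Of 15 further smooth muscle contractile markers, 6 were tested. MYL9, MYOCD, KCNMB1 and PPP1R14A were at 0 in every library, and the smooth muscle actin ACTA2 was at 0.283 FPKM in siC. Upon IGF2BP1 depletion 1 rose and 2 fell, and upon SRF depletion 2 fell (limma adjusted p of at most 0.01). The shares of all genes tested were 3.55% higher and 3.57% lower upon IGF2BP1 depletion, and 5.34% lower and 6.85% higher upon SRF depletion. MYLK, the kinase that activates smooth and non-muscle myosin II, averaged 14.7 FPKM ± 0.225 (SD, n = 3 per group) in control, 24.3 FPKM ± 0.785 in IGF2BP1-depleted and 10.6 FPKM ± 0.287 in SRF-depleted cells. It rose in siIGF2BP1 (log2 fold change 0.72, limma adjusted p = 0.000496) and fell in siSRF (-0.47, limma adjusted p = 0.00134), the same order of groups as CNN2. CSRP1, a LIM protein of smooth muscle, fell in both, with log2 fold changes of -0.97 (limma adjusted p = 0.000601) and -1.03 (limma adjusted p = 0.000329). SMTN, smoothelin, a protein of contractile smooth muscle filaments, fell from 9.51 to 3.89 FPKM upon IGF2BP1 depletion (-1.26, limma adjusted p = 0.00160) and was at 10.3 FPKM in siSRF (0.12, limma adjusted p = 0.500). MYL6, an essential light chain of myosin II, differed between the knockdowns (log2 fold change 0.36, limma adjusted p = 0.00110).

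The protein-coding gene with the most similar pattern to each member was sought among 10372 genes of at least 1 FPKM, by Pearson's r of log2(FPKM + 0.1) over the 9 libraries. The members themselves were left out of this search. These points share libraries and fall into 3 groups, so that r mostly follows the group means and is given as a description. The closest to CNN2 was BTBD2 (r = 0.998), with means of 11.9 FPKM in control, 17.0 FPKM in IGF2BP1-depleted and 4.48 FPKM in SRF-depleted cells. The closest to TPM1 was LPCAT2 (r = 0.998), at 1.65, 5.00 and 1.59 FPKM in the same order. TAGLN2 was closest to PARVB (r = 0.994), the parvin named above, at 7.22, 6.90 and 3.25 FPKM. TPM4 was closest to PLCE1 (r = 0.998), and TPM3 to ERO1A (r = 0.990). For the less variable or low members the closest genes were RPS3A for CNN3 (r = 0.908), SLC25A53 for CALD1 (r = 0.945), TMEM216 for TPM2 (r = 0.958), PRAF2 for TAGLN (r = 0.917) and C19orf54 for CNN1 (r = 0.976), of which those of TAGLN and CNN1 rest on few reads. With 393 genes at an r of at least 0.95 to CNN2, 282 to TPM4, 249 to TAGLN2 and 224 to TPM1, the closest gene was one of many.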

How the data were processed

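Libraries were made from rRNA-depleted total RNA of ES-2 cells (3 per condition). The authors clipped reads with Cutadapt 1.14, aligned them to GRCh38 with HISAT2 2.1.0, counted them on Ensembl genes with featureCounts 1.5.3 and scaled libraries by TMM in edgeR 3.18.1. The authors deposited FPKM values per library and gene length in 2 tables, with identical siC values. Their columns of fold changes, p-values and FDR were not used.

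FPKM values were multiplied by length and divided by a scale for each library, which was estimated from these same products. The result was whole reads, within 0.05 reads, for 100% of the values. Groups were taken from the sample labels. Genes averaging 0.1 FPKM or more in the 6 libraries compared were tested on log2(FPKM + 0.1) by limma 3.58.1 (lmFit, eBayes with a trend) in R 4.3.3, two-sided, adjusted by Benjamini-Hochberg over all genes tested, and called at an adjusted p of at most 0.01. Shares were compared by exact permutation tests (SciPy 1.17.1). Gene coordinates are from GENCODE 44, a later annotation than the one counted on, and promoters from RefSeq. The text names the 10 members, their pseudogenes, the closest gene to each member, and those genes of 3 lists that were called in a comparison. Members and lists were chosen with earlier results of these data known. Some genes of the lists are not reported here and were left out of the counts. The alternatives were other pseudocounts, filters, scaling, thresholds and fits, a replicate block, a correction for GC content and gene length, and leaving out each library.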

Additional observations from a re-analysis of the deposited data

How the results depend on the processing

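The members' calls were recomputed with pseudocounts of 1 and 0.01, no filter, a mean of at least 1 FPKM, median-ratio rescaling, limma-voom on recovered reads, all 9 libraries in one fit, robust eBayes, a replicate block, a correction for GC content and gene length, an adjusted p of at most 0.05 and each library left out. The calls of TPM1, CNN2 in siSRF, TAGLN2 and TPM4 held under each of these. TPM3 was not called against siC (0 members lower in place of 1) with no filter (limma adjusted p = 0.0119), robust eBayes (limma adjusted p = 0.0108) or the replicate block (limma adjusted p = 0.0258), with the same fold change. Limma-voom called 1 member, TPM2, higher in siSRF in place of 0. Against siC in siIGF2BP1, leaving out a library gave 0 members lower throughout and 1 to 2 higher. Between the knockdowns it gave 0 to 1 lower.

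Same-numbered libraries did not deviate together (correlations across genes between -0.067 and 0.018), so that the numbers were not taken to pair them. With the replicate block, 1 member was higher in siIGF2BP1 than in siC (CNN2 had a limma adjusted p of 0.0154) and 0 members were lower than in siSRF. Over all genes the block called 31 lower and 60 higher in siIGF2BP1, 244 lower and 257 higher in siSRF, and 1203 lower and 872 higher between the knockdowns.

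Without it the counts over all genes were 796 lower and 792 higher, 1167 and 1498, and 2492 and 1968. An adjusted p of at most 0.05 gave 1836 and 1760, 2306 and 2899, and 3787 and 3345. Limma-voom gave 1891 and 1914, 2343 and 2780, and 3282 higher between the knockdowns, and all 9 libraries gave 1309 lower in siIGF2BP1. With 1 library left out the counts were 224 to 329 lower and 212 to 420 higher in siIGF2BP1, 482 to 673 and 464 to 1123 in siSRF, and 1577 to 1951 and 1214 to 1455 between the knockdowns.

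Fold changes that reversed were all near 0 and not called. The correction for GC content and gene length gave log2 fold changes of 0.037 for TAGLN2 and -0.0056 for TPM4 in siIGF2BP1, -0.024 for CNN3, 0.13 for TAGLN and -0.12 for CALD1 in siSRF, and 0.083 for CNN3 between the knockdowns. Median-ratio rescaling gave -0.036 for CALD1 in siSRF and 0.035 for CNN3 between the knockdowns, and a pseudocount of 0.01 gave 0.016 for TAGLN in siSRF. The cause was not tested. With each library left out in turn, the log2 fold change ranged from -0.097 to 0.046 for TAGLN2 and from -0.011 to 0.038 for TPM4 in siIGF2BP1, from -0.27 to 0.20 for TAGLN and from -0.036 to 0.060 for CALD1 in siSRF, and from -0.049 to 0.024 for CNN3 between the knockdowns.

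Counted as reads without regard to length, the tropomyosin shares were 21.5% TPM1, 0.417% TPM2, 41.0% TPM3 and 37.0% TPM4 in siC, 43.2%, 0.543%, 26.0% and 30.3% in siIGF2BP1, and 24.1%, 0.940%, 47.2% and 27.7% in siSRF, as longer genes weigh more. With pseudogenes added to their parents, TPM1, TPM3 and TPM4 were at 14.1%, 44.0% and 41.0% in siC, 31.3%, 30.6% and 36.9% in siIGF2BP1, and 16.2%, 50.5% and 31.4% in siSRF. CNN1 rested on 0 to 2 and TAGLN on 2 to 11 reads per library.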
